A study of Homo sapiens with 3 samples.

Results

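Messenger RNA levels of 10 enzymes that activate 5-fluorouracil (5FU), meet it as a target or break it down were compared between an oral cancer line and the drug-resistant lines derived from it. The enzymes were TYMS, UMPS, UPP1, UCK2, TYMP, TK1, RRM1, RRM2, DPYD and DUT. They were taken by gene symbol from a list of enzyme names, drawn up with earlier results of these data known, in a table of read counts for 19220 genes. All 10 symbols were found, and all 10 had 10 or more counts on average across the libraries, the filter that 13676 of the 19220 genes passed. The lowest count of any of the 10 enzymes in any library was 858, for DPYD in CAL27.

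RNA-seq libraries of 3 cultures were analysed, 1 for each line, and a further column per line in the tables has no labelled sample and was not used. CAL27 is an established line of human oral squamous cell carcinoma (OSCC) and is the parental line, grown without drug. CAL27/5FU was derived from it by rising doses over months and was kept in 10 μM 5FU, and CAL27/OXA is an oxaliplatin (OXA)-resistant derivative kept in 10 μM OXA. Whether either derivative is a single clone is not given in the sources used here, and resistance and the presence of the drug cannot be told apart in these cultures.

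The libraries held from 37297713 to 43455488 counts and from 15275 to 15407 genes with at least 1 count. All 12 markers of squamous epithelium were detected in each library, and their summed levels were 15264, 3569 and 5010 CPM (counts per library size, scaled with TMM factors) for CAL27, CAL27/5FU and CAL27/OXA. Against CAL27, 9 of the 12 were past 2-fold lower in CAL27/5FU and 7 in CAL27/OXA, beside 6.72% and 9.28% of all tested genes. Of 14 markers of blood, vessel and connective tissue cells, between 2 and 4 were at or under 3 counts, and their summed level, most of it CD68 in CAL27 and CAL27/OXA, was between 113 and 174 CPM. Of 9 that were tested, 4 (CDH5, COL1A2, LUM and ACTA2) were past 2-fold higher in each derived line, at up to 877 counts, and VWF was lower in CAL27/5FU. The shares of all tested genes past 2-fold higher were 8.46% in CAL27/5FU and 6.54% in CAL27/OXA. Over the 9, CAL27/5FU had a median log2 ratio of 0.62 and CAL27/OXA one of 0.89. With FPKM (counts per gene length and library total) and a pseudocount of 1, the medians were 0.13 and 0.44. Then 3 of the 9 were past 2-fold higher in CAL27/5FU and 1 in CAL27/OXA, with 0 lower in each. The part of these markers in the differences below was not tested. With 1 labelled library per line used here there is no replicate spread and no p-value. A log2 ratio between libraries was computed on CPM with a prior count of 2, and a gene past 2-fold was called higher or lower. Ratios carry a 95% interval (Clopper-Pearson, from both counts), which covers counting error only, and fewer cells of a type cannot be told apart from less RNA per cell.

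5FU is a uracil analogue that cells treat as a pyrimidine. UMPS joins it to a ribose phosphate in 1 step, whereas UPP1 makes the nucleoside that UCK2 then phosphorylates, and these routes lead to fluorinated RNA precursors. TYMP and TK1 form the deoxynucleotide FdUMP directly, and ribonucleotide reductase, made of RRM1 and RRM2, forms it from the ribonucleotides. FdUMP blocks TYMS, the thymidylate synthase that turns dUMP into dTMP. DUT destroys dUTP and its fluorinated form before they enter DNA, and DPYD takes the first step of 5FU breakdown.

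The genes lie on 9 chromosomes (GRCh38, GENCODE 29). TYMS (ENSG00000176890.15) spans chr18:657604-673578 on the plus strand, and UMPS (ENSG00000114491.13) spans chr3:124730366-124749273. UPP1 (ENSG00000183696.13) spans chr7:48088628-48108733, and RRM2 (ENSG00000171848.14) spans chr2:10120698-10131419, all on the plus strand. Also on the plus strand are UCK2 at chr1:165827531-165911618, RRM1 at chr11:4094707-4138876 and DUT at chr15:48331011-48343373. DPYD at chr1:97077743-97995000, TYMP at chr22:50525752-50530056 and TK1 at chr17:78174075-78187233 are on the minus strand. The 250 bases before the first transcription start listed for a gene by RefSeq (GRCh38.p14) are shown for some genes. These are TYMS, UMPS and UPP1 because they were called against CAL27, and RRM2 because it came next to the threshold. The plus strand is shown at chr18:657403-657652, chr3:124730202-124730451, chr7:48089004-48089253 and chr2:10122489-10122738 in turn, with capitals marking words found on either strand. GENCODE starts the gene models of TYMS and UMPS within these bases and those of UPP1 and RRM2 further upstream.
TYMS: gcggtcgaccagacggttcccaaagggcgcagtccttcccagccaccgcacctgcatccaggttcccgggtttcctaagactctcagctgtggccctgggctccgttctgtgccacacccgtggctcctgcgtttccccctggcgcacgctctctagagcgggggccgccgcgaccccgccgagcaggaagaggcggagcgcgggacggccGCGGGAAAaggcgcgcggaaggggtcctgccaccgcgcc
UMPS: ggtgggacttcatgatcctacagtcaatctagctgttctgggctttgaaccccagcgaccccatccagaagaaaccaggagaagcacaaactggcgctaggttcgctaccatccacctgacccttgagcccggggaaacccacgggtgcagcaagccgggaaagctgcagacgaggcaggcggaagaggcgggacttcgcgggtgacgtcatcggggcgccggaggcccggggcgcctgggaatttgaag
UPP1: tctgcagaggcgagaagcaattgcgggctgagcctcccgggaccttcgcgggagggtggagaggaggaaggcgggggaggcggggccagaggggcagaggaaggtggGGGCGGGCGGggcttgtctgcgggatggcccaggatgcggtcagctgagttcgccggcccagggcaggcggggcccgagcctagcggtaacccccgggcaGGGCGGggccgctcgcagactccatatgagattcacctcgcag
RRM2: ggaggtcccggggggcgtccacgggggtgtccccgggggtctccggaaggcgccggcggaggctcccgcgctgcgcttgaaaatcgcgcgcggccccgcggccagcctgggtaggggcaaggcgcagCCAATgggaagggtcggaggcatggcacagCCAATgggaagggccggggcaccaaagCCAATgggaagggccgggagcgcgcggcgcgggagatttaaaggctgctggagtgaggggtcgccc

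The words searched on both strands were TTTCCCGC, TTTCGCGC, TTTGCCGC and TTTGGCGC (E2F words), the CCAAT box, the GC box spelled GGGCGG and the TATA word spelled TATAAA. The upstream bases of TYMS held 1 E2F word on the minus strand, beginning 39 bases before the start, and those of UPP1 held 3 GC boxes, a pair of which share bases. RRM2 had CCAAT at 123, 93 and 66 bases before the start, and UMPS held none of these words. Over 27305 promoters of the same length, 2.79% held an E2F word, 33.0% CCAAT, 42.3% a GC box and 11.1% TATAAA. Among promoters of tested genes these shares were 4.28%, 34.8%, 66.0% and 5.66%. Promoters of all 10 enzymes were matched, and TYMS was the only one of them with an E2F word at the start searched. Only the first listed start of each gene was searched. DUT had 4 listed starts, UPP1 had 3, and RRM2, TK1, TYMP and DPYD had 2 each. A match describes these letters and is neither a binding site nor a cause.

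TYMS showed the widest range of the 10 enzymes. It had 1060 counts in CAL27 cells, 12223 in CAL27/5FU cells and 1267 in CAL27/OXA cells, or 27.2, 312 and 28.5 CPM. The CAL27/5FU library thus stood alone, while the other libraries were alike. Against CAL27, TYMS was 11.5-fold higher in CAL27/5FU (log2 ratio 3.52, interval 3.43 to 3.61), the 81st highest ratio of 13676 genes. In CAL27/OXA its log2 ratio was 0.07 (interval -0.05 to 0.19), so that counting error alone covered this difference. CAL27/OXA against CAL27/5FU gave -3.45 (interval -3.54 to -3.37).

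Per length, TYMS also changed its place among all genes. Its FPKM, the deposited measure that divides counts by gene length and library total, was 16.02 for the parental line, 207 for CAL27/5FU and 18.4 for CAL27/OXA. These values ranked 4640th, 266th and 4393rd of the genes in their own library. TYMS was therefore a transcript of middling abundance in CAL27 and CAL27/OXA and among the most abundant in CAL27/5FU.

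Genes that share DNA with TYMS were also highest in CAL27/5FU. ENOSF1, which encodes a mitochondrial enolase-family enzyme, overlaps TYMS by 3255 bases on the opposite strand, and it had 2343 counts in CAL27 cells, 21508 in CAL27/5FU cells and 2119 in CAL27/OXA cells. Its log2 ratios against CAL27 were 3.19 and -0.33. TYMSOS, an antisense transcript named after its values were seen, overlaps TYMS by 737 bases and had 73, 1019 and 111 counts. Whether the counting used strand is not given in the sources used here, so reads from the overlaps cannot be assigned with certainty.

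The 5 genes whose pair of ratios against CAL27 lay nearest to that of TYMS, by Euclidean distance among the 11540 genes that averaged 100 counts or more, were PGBD5, THBS4, YES1, SLX1B and C15orf48. PGBD5, a transposase-derived gene, had 20, 262 and 24 counts in CAL27, CAL27/5FU and CAL27/OXA. THBS4, which encodes the matrix protein thrombospondin-4, had 24, 310 and 28. YES1, a SRC-family kinase gene, had 6372, 63720 and 8025, and it lies on chromosome 18 beside TYMS. SLX1B, an endonuclease subunit gene with a near-identical copy (SLX1A) that can share its reads, had 71, 682 and 92, and C15orf48 had 466, 4170 and 637. The distances ran from 0.065 to 0.42 log2 units over 3 libraries, and no other property was used to choose these genes. They take no account of counting error. PGBD5 and THBS4 had 28 counts or fewer in CAL27 and CAL27/OXA, so nothing is drawn from the order of the 5.

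**Figure D1:**
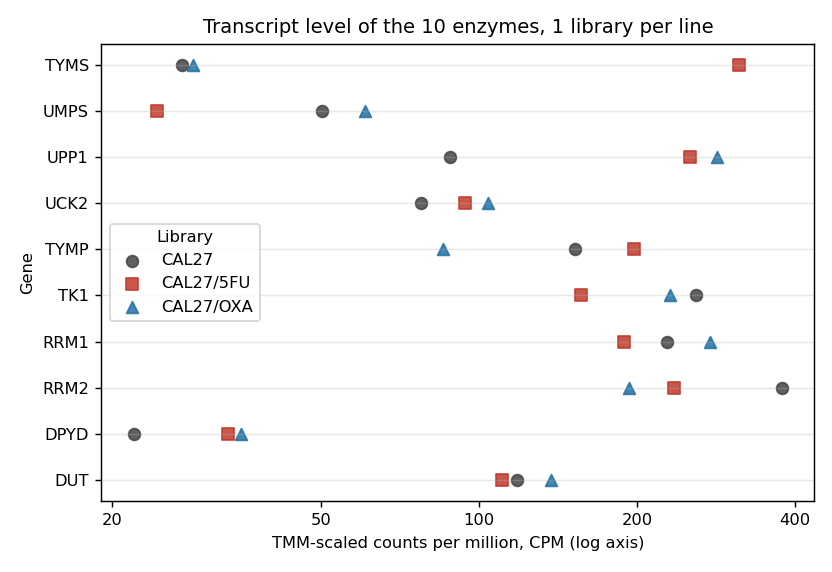
Level of each enzyme in TMM-scaled CPM (log axis), with 1 point per line for CAL27 (circle), CAL27/5FU (square) and CAL27/OXA (triangle). TYMS in CAL27/5FU sits at 312 CPM against 27.2 and 28.5 in the other libraries, UMPS is lowest in CAL27/5FU at 24.4, and UPP1 is low only in CAL27 at 88.0.

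The enzymes that feed 5FU into the ribonucleotide pool went different ways. UMPS had 1955 counts in the parental line, 956 in CAL27/5FU and 2701 in CAL27/OXA, or 50.2, 24.4 and 60.8 CPM. The CAL27/5FU library was the low one. Its log2 ratio was -1.04 in CAL27/5FU (interval -1.15 to -0.93), just past 2-fold, and 0.28 in CAL27/OXA (interval 0.19 to 0.36). With upper quartile factors, library totals or FPKM values the first ratio lay between -0.99 and -0.73, in the same direction but not past 2-fold. Between the derived lines UMPS was 2.49-fold higher in CAL27/OXA (log2 ratio 1.31, interval 1.21 to 1.42), the 346th highest ratio of all tested genes.

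UPP1, the uridine phosphorylase, was higher in both derived lines. It had 3427 counts in CAL27 cells, 9848 in CAL27/5FU cells and 12591 in CAL27/OXA cells. It rose to 2.86-fold in CAL27/5FU (log2 ratio 1.52, interval 1.46 to 1.57) and to 3.22-fold in CAL27/OXA (1.69, interval 1.63 to 1.74). The derived lines differed from each other by only 0.17. UCK2, the uridine-cytidine kinase that uses the product of UPP1, had 3020, 3678 and 4628 counts, with log2 ratios of 0.28 (interval 0.21 to 0.35) and 0.43 (interval 0.36 to 0.49), neither past 2-fold.

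UPP1 thus gained on both its alternative and its partner. Within a library, the FPKM of UPP1 was 7.51 times that of UMPS in CAL27 (interval 7.10 to 7.94), 44.1 times in CAL27/5FU (interval 41.3 to 47.2) and 19.97 times in CAL27/OXA (interval 19.2 to 20.8). The ratio of UPP1 to UCK2 was 3.55 in the parental line, 8.38 in CAL27/5FU and 8.51 in CAL27/OXA. UPP1 to UMPS separated all 3 lines, while UPP1 to UCK2 separated CAL27 from both derived lines, whose intervals overlapped (8.06 to 8.70 and 8.23 to 8.80). These are ratios of transcripts and not of enzyme activities.

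TYMP and TK1, which act at the deoxynucleoside level, did not move together. TYMP, the thymidine phosphorylase, had 5943 counts in CAL27 cells, 7705 in CAL27/5FU cells and 3786 in CAL27/OXA cells. Its log2 ratio was 0.37 in CAL27/5FU (interval 0.32 to 0.42) and -0.84 in CAL27/OXA (interval -0.90 to -0.78), both within 2-fold of CAL27. Only between the derived lines was TYMP past 2-fold, at -1.21 in CAL27/OXA against CAL27/5FU (interval -1.26 to -1.15).

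TYMP shares DNA with other genes of its strand in the annotation, by 688 bases with SCO2 and by 347 bases with ODF3B. SCO2 had 155, 234 and 76 counts in CAL27, CAL27/5FU and CAL27/OXA, and ODF3B had 860, 1647 and 604. Both, named here for the overlap, were highest in CAL27/5FU and lowest in CAL27/OXA, as TYMP was. How reads in the overlaps were assigned was not tested.

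TK1, the cytosolic thymidine kinase, had 10097 counts in the parental line, 6135 in CAL27/5FU and 10274 in CAL27/OXA. Its log2 ratio was -0.73 in CAL27/5FU (interval -0.77 to -0.68) and -0.16 in CAL27/OXA (interval -0.20 to -0.12). TK1 was therefore low in CAL27/5FU alone, within 2-fold. TYMP to UMPS, the deoxy route set against the direct ribose route, was 12.0 by FPKM in CAL27 cells, 31.8 in CAL27/5FU cells and 5.53 in CAL27/OXA cells, so the order of lines was opposite to that of UMPS itself.

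The subunits of ribonucleotide reductase stayed within 2-fold of CAL27, but the balance between them differed between lines. RRM1, the large subunit, had 8875, 7404 and 12230 counts in CAL27, CAL27/5FU and CAL27/OXA, with log2 ratios of -0.27 (interval -0.31 to -0.22) and 0.27 (interval 0.23 to 0.31). RRM2, the small subunit that is made in S phase, had 14702, 9191 and 8584 counts. It was highest in CAL27, with ratios of -0.68 in CAL27/5FU (interval -0.72 to -0.65) and -0.97 in CAL27/OXA (interval -1.004 to -0.93), the latter just short of 2-fold.

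The FPKM of RRM2 relative to RRM1 was 1.42 in CAL27 (interval 1.38 to 1.46), 1.06 in CAL27/5FU (interval 1.03 to 1.10) and 0.60 in CAL27/OXA (interval 0.58 to 0.62). The subunits were near parity in CAL27/5FU, whereas RRM2 was the scarcer transcript in CAL27/OXA. RRM2B, the small subunit that p53 induces, was far below both, at 5.73, 3.97 and 4.29 FPKM, and its log2 ratios were -0.70 and -0.55. The 3 subunit genes gave 0 calls in either derived line.

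DPYD, dihydropyrimidine dehydrogenase, was the least abundant of the 10 enzymes in CAL27 by FPKM. It had 858 counts in the parental line, 1302 in CAL27/5FU and 1566 in CAL27/OXA, with log2 ratios of 0.59 (interval 0.47 to 0.72) and 0.68 (interval 0.56 to 0.80). Both derived lines were above CAL27 but within 2-fold, and they did not differ beyond counting error (0.08, interval -0.02 to 0.19). The enzymes that follow DPYD in breakdown were scarcely detected, with DPYS at 1, 1 and 6 counts and UPB1 at 2, 0 and 0. The FPKM of TYMS relative to DPYD was 2.43 in CAL27 cells, 18.5 in CAL27/5FU cells and 1.59 in CAL27/OXA cells.

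DUT, the dUTPase, had the smallest spread of the 10 enzymes over the 3 libraries. It had 4602 counts in the parental line, 4323 in CAL27/5FU and 6090 in CAL27/OXA. Its log2 ratio in CAL27/5FU was -0.10 (interval -0.16 to -0.04), but 0.07 when libraries were scaled by their totals, so its direction there depended on the scaling. In CAL27/OXA the ratio was 0.21 (interval 0.16 to 0.27). DUT has 8 processed copies in the annotation, RRM2 has 3 and TYMS has 2, none of them in the table, and how reads shared with them were counted was not tested.

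**Figure D2:**
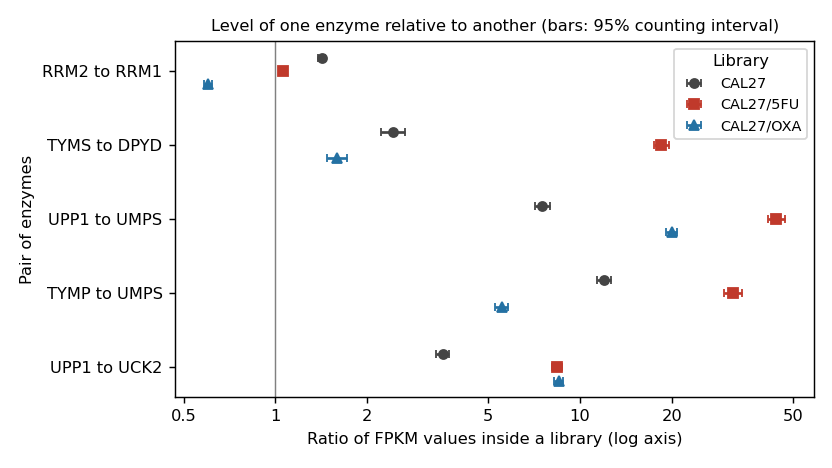
FPKM of one enzyme divided by that of another within the same library (log axis), with 95% counting intervals as bars, for CAL27 (circles), CAL27/5FU (squares) and CAL27/OXA (triangles). RRM2 to RRM1 is 1.42 in CAL27 and 0.60 in CAL27/OXA, and TYMS to DPYD is 18.5 in CAL27/5FU against 2.43 and 1.59.

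Counts over 10 genes are small, and they are given beside the share of all tested genes called in the same direction. In CAL27/5FU against CAL27, 2 of 10 were past 2-fold higher (TYMS and UPP1) where 8.46% of all tested genes were, and 1 of 10 was lower (UMPS) where 6.72% were. In CAL27/OXA against CAL27, 1 was higher (UPP1) against 6.54% of all genes, and 0 were lower against 9.28%. In CAL27/OXA against CAL27/5FU, 1 was higher (UMPS) against 4.18%, and 2 were lower (TYMS and TYMP) against 8.38%. The 3 comparisons share libraries and are not independent of each other.

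The median log2 ratio of the 10 enzymes was 0.09 in CAL27/5FU and 0.24 in CAL27/OXA against CAL27, where the medians of all tested genes were -0.0035 and 0.0055. Without regard to direction, the median size of the ratio was 0.64 for the enzymes and 0.33 for all genes in CAL27/5FU, and 0.35 and 0.34 in CAL27/OXA. The ratios of the enzymes were the larger in CAL27/5FU and of about equal size in CAL27/OXA. Because the enzymes were chosen with earlier results of these data known, nothing is drawn from this difference.

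**Figure D3:**
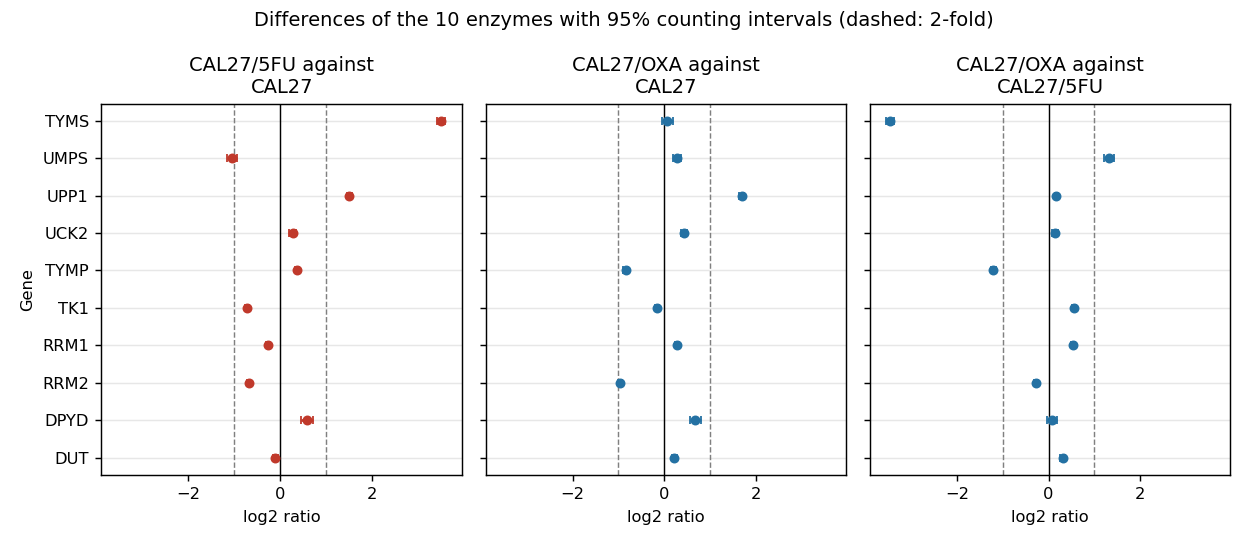
Log2 ratio of each enzyme for the 3 comparisons, with points for the ratio, bars for the 95% counting interval and dashed lines at 2-fold. In CAL27/5FU against CAL27, TYMS (3.52) and UPP1 (1.52) lie past the upper line and UMPS (-1.04) at the lower line, while in CAL27/OXA against CAL27 only UPP1 (1.69) is past 2-fold.

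The other genes of pyrimidine and folate metabolism, nucleotide transport and uracil repair numbered 58, of which 53 were tested. In CAL27/5FU, 4 of the 53 were higher and 4 lower, beside 8.46% and 6.72% of all tested genes. The median log2 ratio was 0.04. In CAL27/OXA, 4 were higher and 7 lower, beside 6.54% and 9.28%, with a median of 0.09. Between the derived lines, 2 were higher and 5 lower in CAL27/OXA, beside 4.18% and 8.38%, with a median of -0.08. These counts are read against those shares, and nothing particular to the list is drawn from them.

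Among kinases, TK2, the mitochondrial thymidine kinase, had 278 counts in CAL27 cells, 687 in CAL27/5FU cells and 936 in CAL27/OXA cells, with log2 ratios of 1.29 and 1.56. It was past 2-fold higher in both derived lines, where its cytosolic counterpart TK1 was at -0.73 and -0.16. CMPK2, a mitochondrial UMP-CMP kinase that interferon induces, had 852, 4460 and 792 counts and was higher in CAL27/5FU only (2.38 against -0.29). The other 7 genes of nucleotide kinases were within 2-fold in both lines, with NME1 and NME2 uncertain because these near-identical genes can share reads.

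The folate genes around TYMS stayed within 2-fold. Of the 11 genes of the TYMS and folate list, TYMS was the only one past 2-fold in CAL27/5FU, and none was in CAL27/OXA, where the list median was 0.07. Of all tested genes, 8.46% were higher and 6.72% lower in CAL27/5FU, and 6.54% and 9.28% in CAL27/OXA. Nothing particular to the list is drawn from these counts.

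Among genes that clear dUTP or remove uracil from DNA, SAMHD1 was called higher and MBD4 lower in CAL27/5FU. SAMHD1, which degrades deoxynucleotides and is interferon-responsive, had 2403 counts in the parental line, 6312 in CAL27/5FU and 3775 in CAL27/OXA, with log2 ratios of 1.39 and 0.46. MBD4, a glycosylase that removes uracil, thymine and 5-fluorouracil from mismatches, had 2233, 1106 and 2712 counts, with ratios of -1.02 (-0.85 when scaled by library totals) and 0.09. UNG, the main uracil glycosylase, was within 2-fold at 0.17 and 0.38.

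Of the 7 genes listed for pyrimidine synthesis and interconversion, 6 had positive ratios in CAL27/5FU and 0 were past 2-fold. Among all 13676 tested genes, 6792 were positive there, 8.46% were past 2-fold higher and 6.72% lower. UMPS was placed in another list and was at -1.04 in CAL27/5FU. In CAL27/OXA, 1 of the 7 was higher and 1 lower, beside 6.54% and 9.28% of all tested genes. In CAL27/OXA, DHODH, the mitochondrial step before UMPS, was higher (415, 707 and 1039 counts, log2 ratio 1.13). CDA, cytidine deaminase, was lower in CAL27/OXA, with 1025 counts in CAL27 cells, 1057 in CAL27/5FU cells and 192 in CAL27/OXA cells, a log2 ratio of -2.59 (interval -2.84 to -2.38) against 0.04 in CAL27/5FU.

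NT5E, the surface 5′-nucleotidase CD73, was the most raised of the other metabolism genes in CAL27/OXA and nearly so in CAL27/5FU. It had 2640, 13104 and 15947 counts in CAL27, CAL27/5FU and CAL27/OXA, with log2 ratios of 2.30 and 2.40. Both derived lines were about equally high, the pattern that UPP1 and TK2 also had.

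Transport was the metabolism list with the most genes lower. In CAL27/5FU, 3 of 9 tested genes were lower and 0 higher (median -0.68), and in CAL27/OXA 6 were lower and 1 higher (median -1.34). Of all tested genes, 6.72% were lower in CAL27/5FU and 9.28% in CAL27/OXA. With an FPKM pseudocount of 1, which compresses low values, 1 and 3 transport genes were lower, 0 were higher, and the medians were -0.10 and -0.75. ABCC5, a pump that exports fluoropyrimidine monophosphates, was lower in both lines (3486, 1428 and 1569 counts, log2 ratios -1.29 and -1.34). The equilibrative carriers SLC29A2 and SLC29A3 were lower in CAL27/OXA, at -1.30 and -1.34.

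The concentrative carriers were scarce. SLC28A1 had 66, 4 and 2 counts in CAL27, CAL27/5FU and CAL27/OXA, with log2 ratios of -3.53 (interval -5.97 to -2.63) and -4.21 (interval -8.31 to -3.32). SLC28A3 had 338, 308 and 42 counts and was lower only in CAL27/OXA (-3.13). The drug pump ABCG2 had 57, 26 and 244 counts, lower in CAL27/5FU (-1.08, and -0.92 when scaled by library totals) and higher in CAL27/OXA (1.87), and ABCC11 had 35, 19 and 8 (-0.83 and -2.05).

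**Figure D4:**
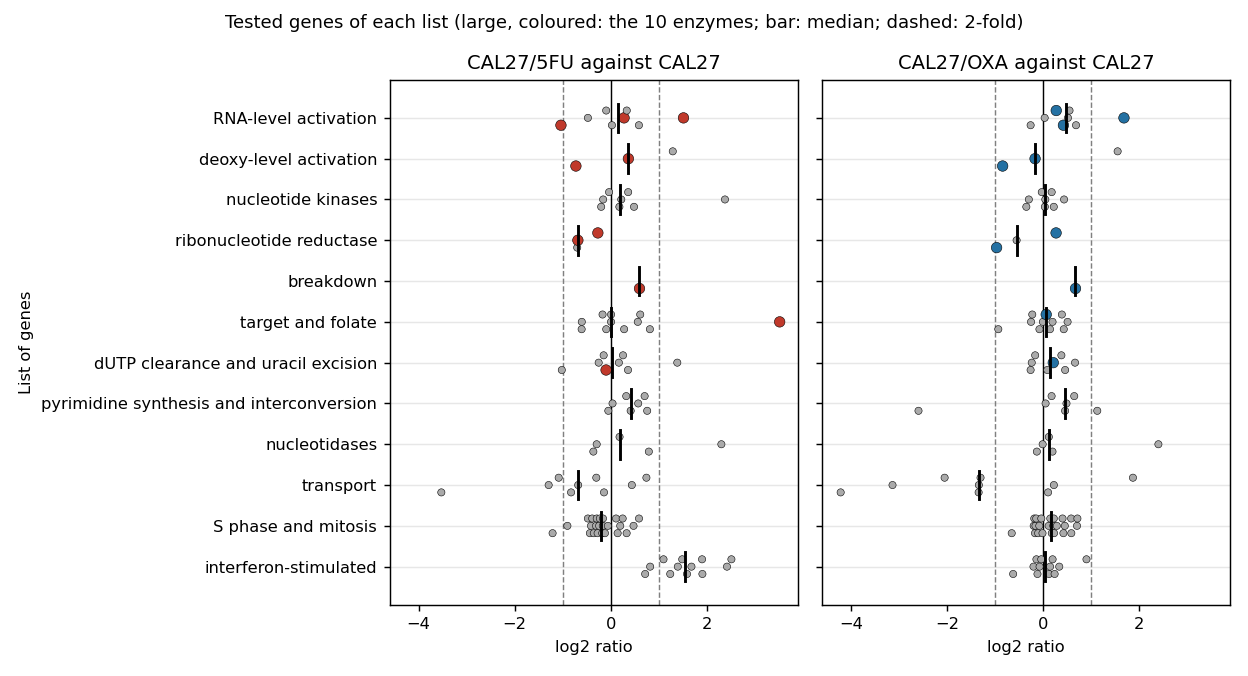
Log2 ratio against CAL27 of the tested genes in each list, for CAL27/5FU (left) and CAL27/OXA (right), with the 10 enzymes as large coloured points, the list median as a bar and 2-fold as dashed lines. Interferon-stimulated genes lie around 1.54 in CAL27/5FU and 0.05 in CAL27/OXA, and the transport list has its median at -0.68 and -1.34.

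Levels of TYMS, TK1, RRM1, RRM2 and DUT are known to follow the cell cycle, and replication genes were read beside them. Of 24 genes of S phase and mitosis, the median log2 ratio was -0.20 in CAL27/5FU, with 1 lower (CCNE2, a cyclin, -1.21) and a highest value of 0.59 for MCM3, a subunit of the replicative helicase. In CAL27/OXA the median was 0.17, with 0 calls and values from -0.65 for GINS2 to 0.72 for MCM3. Among all tested genes, 8.46% were higher and 6.72% lower in CAL27/5FU, and 6.54% and 9.28% in CAL27/OXA. The summed level of the list was 4119 CPM in the parental line, 3589 in CAL27/5FU and 4415 in CAL27/OXA. By CPM, TK1, RRM1 and DUT were lowest in CAL27/5FU, although DUT was not when scaled by library totals. RRM2 was lowest in CAL27/OXA, and TYMS was highest in CAL27/5FU. Scaled by library totals, the list median in CAL27/5FU was -0.03, and CCNE2 was within 2-fold (-0.84) with an FPKM pseudocount of 1. The part of proliferation in the differences was not tested.

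TYMP and CMPK2 are known interferon targets. Of 12 interferon-stimulated genes, 10 were higher in CAL27/5FU, beside 8.46% of all tested genes. Their median log2 ratio was 1.54, with values from 0.72 for OAS1 to 2.51 for IFI44L. In CAL27/OXA 0 of the 12 were called, beside 6.54% of all tested genes higher and 9.28% lower. The median in CAL27/OXA was 0.05, with values from -0.62 for OAS1 to 0.91 for ISG15. With library totals or FPKM values ISG15 was past 2-fold there (1.04) and the median was 0.17 to 0.18. TYMP, at 0.37 in CAL27/5FU, lay below every gene of that list. In CAL27/OXA against CAL27/5FU, TYMP (-1.21) lay close to the list median of -1.35. The part of interferon-responsive transcription in the values of TYMP was not tested.

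Genes near TYMS, UMPS and RRM2 on the chromosome were shifted in 1 of the derived lines. For each enzyme, neighbours were the 5 closest tested genes to either side (9 genes for TYMS, near the chromosome end). Around TYMS the median log2 ratio was 0.27 in CAL27/OXA against CAL27 and -2.12 in CAL27/OXA against CAL27/5FU. In CAL27/5FU against CAL27, 8 of the 9 were past 2-fold higher, beside 8.46% of all tested genes. TYMSOS and ENOSF1, which overlap TYMS and may share reads with it, were among the 8. USP14, the one not past 2-fold higher, lies 0.50 Mb before TYMS and had -0.83. Beyond 1 Mb to the other side, METTL4 to TGIF1 had ratios between 0.98 and 2.44 in CAL27/5FU, below that of TYMS. Of 13392 tested genes with a position, 6, TYMS itself among them, had a neighbour median at least as high as that of TYMS in CAL27/5FU. Each such count or share, here and below, includes the enzyme itself, and adjacent genes share most of their neighbours. A run of genes is thus partly counted against itself, and nothing is drawn from these values.

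Around UMPS the median of 10 neighbours was -0.86 in CAL27/5FU, 0.18 in CAL27/OXA and 1.03 between the derived lines, values close to those of UMPS itself (-1.04, 0.28 and 1.31). In CAL27/5FU, 5 of the 10 were past 2-fold lower and 1 higher. Within 5 Mb, 60 of 71 tested genes had negative ratios in CAL27/5FU and 28 were past 2-fold lower, while in CAL27/OXA 42 were positive and 3 past 2-fold lower. Among all 13676 tested genes, 6792 were positive and 6.72% past 2-fold lower in CAL27/5FU. The same figures for CAL27/OXA were 6911 and 9.28%. MCM2, the helicase gene with 2.87 Mb between its start and that of UMPS, was at -0.90 in CAL27/5FU, and MBD4, at 4.70 Mb, was at -1.02. Of all genes with a position, 1.27% had a neighbour median as low as that of UMPS in CAL27/5FU.

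Around RRM2 it was CAL27/OXA that stood apart. The median of its 10 neighbours was 0.12 in CAL27/5FU and -1.32 in CAL27/OXA, where 6 of them were past 2-fold lower. With 10 neighbours on each side the latter median was -1.17, with 13 of 20 lower, beside 9.28% of all tested genes. Within 5 Mb all 28 tested genes were lower in CAL27/OXA than in CAL27/5FU, by a median of -1.06, while RRM2 itself differed by -0.28. In that comparison 6947 of all 13676 tested genes were positive. A neighbour median as low as -1.32 in CAL27/OXA against CAL27 was seen for 0.575% of genes.

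Neighbours of the other enzymes gave smaller medians, with DUT the nearest to those above. Around UPP1 the medians were 0.36 in CAL27/5FU and 0.22 in CAL27/OXA, where UPP1 itself had 1.52 and 1.69. Around TYMP they were 0.23 and -0.46, where TYMP itself had 0.37 and -0.84. In CAL27/OXA against CAL27/5FU, the only comparison in which TYMP was called (-1.21), its neighbours had a median of -0.57. Of these 10, 4 were past 2-fold lower and 0 higher, beside 8.38% and 4.18% of all tested genes. ODF3B, which overlaps TYMP, was among the 4. A neighbour median that low was seen for 2.785% of genes. Around DUT they were 0.78 and 0.36, where DUT itself had -0.10 and 0.21, and 1.07% of genes had a neighbour median as high as the first of these. In CAL27/5FU, 5 of the 10 neighbours of DUT were past 2-fold higher, beside 8.46% of all tested genes. Their median was 0.38 when 10 neighbours were taken on each side. For DPYD, TK1, RRM1 and UCK2 all medians against CAL27 lay between -0.25 and 0.20. UPP1 was called in both lines, and the median of its 10 neighbours stayed within 2-fold. In CAL27/5FU, however, 3 of these 10 were past 2-fold higher and 1 lower. The median of the 5 after UPP1 was 1.01 there, and that of the 5 before it was -0.13. With 10 neighbours on each side the median after UPP1 was 0.16. What sets these runs of neighbouring genes apart was not tested.

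**Figure D5:**
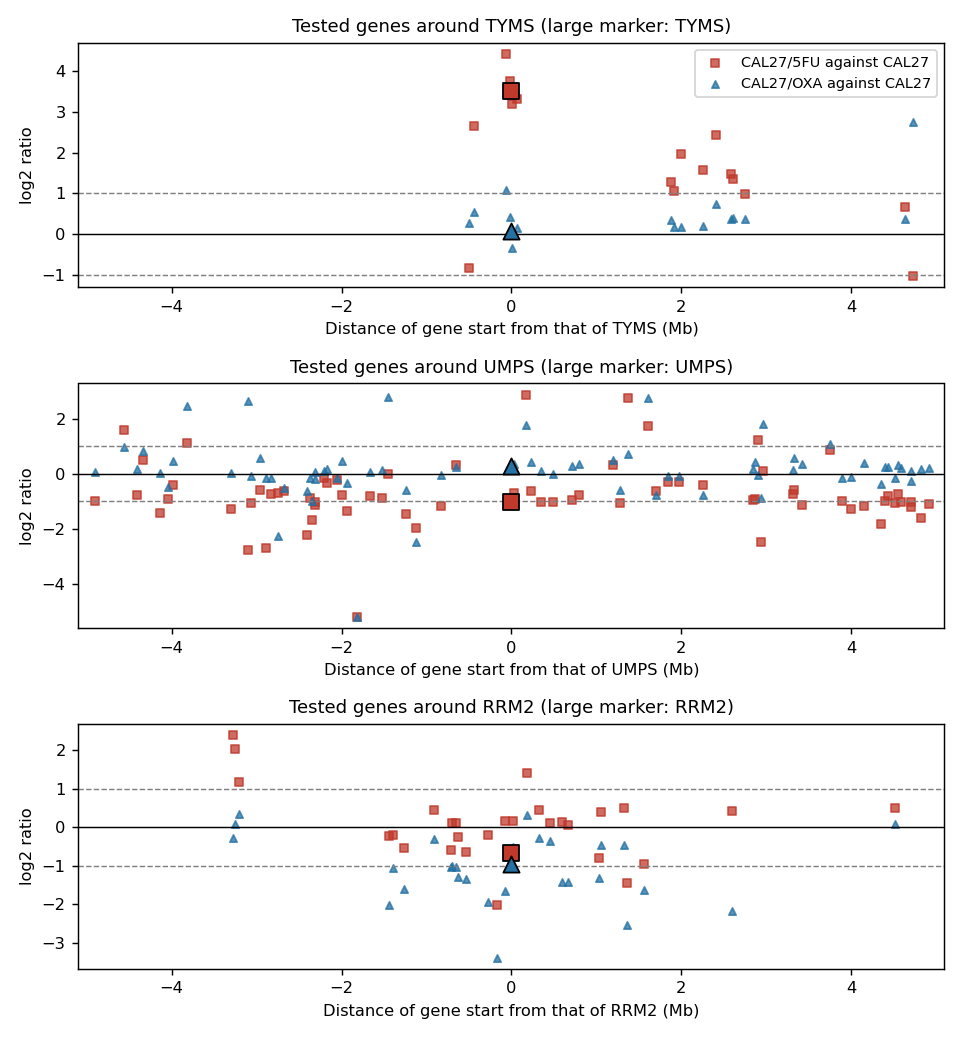
Log2 ratio against CAL27 of tested genes by the distance of their start from that of TYMS, UMPS or RRM2 (Mb), for CAL27/5FU (squares) and CAL27/OXA (triangles), with the named gene as a large marker and 2-fold as dashed lines. Around TYMS the squares lie high close to the gene, around UMPS 60 of 71 squares lie below 0, and around RRM2 the triangles have a median of -1.06.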

How the data were processed

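Total RNA was extracted with TRIzol, libraries were made with a NEBNext Ultra RNA kit and sequenced on an Illumina NovaSeq by Novogene. The submitters' processing notes name CASAVA 1.8, HISAT2 2.0.5 and GRCh38. The counting tool, the annotation and the strand setting are not given in the sources used here. The authors deposited 2 tables, one of read counts per gene (not normalized, 19220 genes) and one of FPKM (19225 genes). For all 14367 genes with counts in all 3 libraries, counts, FPKM and library totals gave 1 gene length within 0.1%, so the deposited FPKM values are scaled by total counts and length alone. Each table held 3 further columns of per-sample values, 6 in all, whose names read as a second sample of each line but match no labelled sample. These were not used. It is thus the labels, not the tables, that leave a single usable column for each line.

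TMM factors from edgeR 4.0.16 (R 4.3.3) were 0.932, 1.05 and 1.02 for CAL27, CAL27/5FU and CAL27/OXA, and log2 CPM used a prior count of 2. Tested genes averaged 10 counts or more, and those past 2-fold were called. With 1 library per line no model was fitted, and edgeR and DESeq2 1.42.0 served for scaling only. Intervals are exact Clopper-Pearson intervals (scipy 1.17.1) and were tested on simulated data. They and the floor of 3 counts cover counting error only, and reads without molecular identifiers are not independent molecules. Levels between genes were compared by FPKM within a library.

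The 10 enzymes and the 15 lists of genes were chosen with earlier results of these data known, and the lists overlap. The genes named are the 10 enzymes, genes of the 10 metabolism lists past 2-fold in any comparison, ENOSF1, the 5 genes nearest to TYMS in pattern, and the highest and lowest gene of the replication and interferon lists. Others (TYMSOS, SCO2, ODF3B, RRM2B, DPYS, UPB1, NME1, NME2, UNG, SLC29A1, MCM2, USP14, METTL4, TGIF1, CDH5, COL1A2, LUM, ACTA2, VWF and CD68) were named for an overlap, a position or a role after their values were seen. Symbols were matched to GENCODE 29 for 18769 genes. Alternatives were DESeq2 size factors, library totals, upper quartile factors, other filters, prior counts of 0.5 and 5, FPKM with pseudocounts of 1 and 0.1, and other thresholds. The scalings were also applied to the lists, a choice made after seeing the data. Protein sequences were not used here. Values of some single genes are not reported here.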

Additional observations from a re-analysis of the deposited data

Results flagged for a closer look

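For 4 of the 10 enzymes the derived lines lay on opposite sides of CAL27. The share of all tested genes that did so was not counted, so nothing particular to the enzymes is drawn from this. With 1 library per line this difference between the lines was not tested against any replicate spread. UMPS was below CAL27 in CAL27/5FU (-1.04) and above it in CAL27/OXA (0.28), so that CAL27/OXA against CAL27/5FU gave a log2 ratio of 1.31. TYMP was above CAL27 in CAL27/5FU (0.37) and below it in CAL27/OXA (-0.84), a ratio of -1.21 between them. RRM1 was at -0.27 in CAL27/5FU and 0.27 in CAL27/OXA, which differ by 0.54. DUT was at -0.10 and 0.21, which differ by 0.31, and its value in CAL27/5FU became 0.07 with libraries scaled by their totals, which ends the opposition.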

How the results depend on the processing

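No paired analysis was possible because each line has 1 labelled library here, so that the groups share fewer than 2 replicate numbers, and no library could be left out. Of 210 recomputed log2 ratios of the 10 enzymes, under 7 settings of scaling, prior count or unit, 3 changed sign, 4 crossed 2-fold and 61 lay outside their 95% counting interval, which does not cover the choice of scaling. The sign changes were all DUT in CAL27/5FU, at 0.0737 (library totals), 0.0724 (FPKM with a pseudocount of 1) and 0.0735 (FPKM with 0.1). The crossings were all UMPS in CAL27/5FU, at -0.867 with library totals, -0.994 with upper quartile factors, and -0.726 and -0.851 with FPKM pseudocounts of 1 and 0.1. The count of enzymes lower in CAL27/5FU was therefore 0 in these 4 settings, and 0 also at 4-fold or with the whole interval past 2-fold. At 1.5-fold 3 enzymes were higher and 3 lower in CAL27/5FU, beside 15.24% and 14.05% of all tested genes. At 4-fold 1 was higher and 0 lower, beside 2.95% and 2.09%.

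In CAL27/OXA against CAL27, 2 enzymes were higher and 2 lower at 1.5-fold, beside 14.08% and 17.04% of all tested genes. At 4-fold 0 were higher there, beside 2.16%. Between the derived lines, 0 were higher and 1 lower at 4-fold, beside 1.22% and 2.57%. The median of the 10 enzymes in CAL27/5FU was 0.261 with library totals and 0.248 and 0.26 with FPKM pseudocounts of 1 and 0.1, and in CAL27/OXA 0.377, 0.353 and 0.376. Library totals also moved the median of all genes, to 0.17 in CAL27/5FU and 0.14 in CAL27/OXA, by the construction of that scaling. The share of higher genes among those called then went from 55.7% to 67.2% in CAL27/5FU and from 41.3% to 51.1% in CAL27/OXA. No list median changed sign under these settings, although in CAL27/5FU those of transport and of S phase and mitosis moved towards 0, as given beside them. With an FPKM pseudocount of 1, the median of the blood, vessel and connective tissue markers did so in both derived lines.

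Counts of all genes called depended on the filter and the unit. In CAL27/5FU, 1157 were higher and 919 lower, against 1899 and 1555 without a filter, 760 and 655 with a mean of at least 50 counts, 503 and 311 with an FPKM pseudocount of 1, and 1168 and 613 with 0.1. In CAL27/OXA, 894 and 1269 became 1348 and 1925 without a filter and 368 and 481 with an FPKM pseudocount of 1. Between the derived lines, 571 and 1146 became 981 and 1861 without a filter, 369 and 794 with a mean of at least 50 and 165 and 437 with an FPKM pseudocount of 1. Among the genes named, depth limited SLC28A1 (2 to 66 counts) and ABCC11 (8 to 35 counts), and DPYS and UPB1 were too low to be tested. In CAL27 and CAL27/OXA it also limited PGBD5 (20 and 24 counts) and THBS4 (24 and 28 counts).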
